A study of Rattus norvegicus with 4 samples.

Results

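Mast cells of the rat stomach were followed through the transcripts of 8 genes: the proteases Mcpt1, Mcpt2, Cpa3, Tpsab1 and Tpsb2, and the receptors Fcer1a, Ms4a2 and Kit. Members were all probe sets on the Affymetrix RAE230A chip whose platform gene symbol was one of these names. The rule found 8 probe sets out of 15866 on the chip, for 7 of the 8 genes: 4 proteases, and 3 receptors, of which Ms4a2 had 2 probe sets, out of 10411 genes named on the chip. No probe set carried the symbol Mcpt2, and that gene is not analysed here. RNA came from scraped oxyntic mucosa, the part of the gastric lining that secretes acid, of female Sprague-Dawley rats of 8 weeks, which were sampled at 21 days after an overnight fast. Treated animals received 5 mg of octreotide LAR each, a slow-release depot of the somatostatin analogue octreotide, and these 6 animals gave 3 chips with the pooled RNA of 2 animals each, here called pools 1 to 3. Control animals received the LAR vehicle in a matching volume, and 1 chip was hybridised with RNA pooled from all 8 of them. The title of the control sample gives vehicle while its source name mentions octreotide LAR; groups follow the titles.

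Mast cells store histamine, heparin-like proteoglycan and large amounts of serine proteases in granules that they release when antigen crosslinks IgE on their high-affinity receptor. In the stomach they are the histamine-storing cell beside the enterochromaffin-like (ECL) cell, and both make histamine with histidine decarboxylase, so the proteases and the IgE receptor are read here to follow mast cells apart from that enzyme. Rat mast cells are classically divided into mucosal cells, which hold rat mast cell protease II, and connective tissue cells of the submucosa and serosa, which hold rat mast cell protease I, carboxypeptidase and tryptases. The platform symbol of the chymase probe set does not settle which of these it reads. In the RefSeq gene table the gene now named Mcpt1 carries the older names rMCP-1 and rMCP-2, and a neighbouring gene, Mcpt1l1, carries the older names rMCP-1 and Mcpt1. The signal named Mcpt1 below may therefore come from either chymase or from both.

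The sequences in front of the 3 genes bright enough to be tested, and of the copy Mcpt1l1, are shown because they make visible how alike the chymase genes are and which of them carry the motif of the GATA factors, known to drive mast cell genes. Each is the 120 bases before the gene's start from RefSeq (GRCr8), 5′ to 3′ on the gene's strand, with the letters GATAA in capitals. Mcpt1 is chr15:33841486-33841605 on the plus strand, Mcpt1l1 is chr15:33876896-33877015 on the minus strand, Cpa3 is chr2:104673238-104673357 on the minus strand and Tpsb2 is chr10:14886190-14886309 on the plus strand.
Mcpt1: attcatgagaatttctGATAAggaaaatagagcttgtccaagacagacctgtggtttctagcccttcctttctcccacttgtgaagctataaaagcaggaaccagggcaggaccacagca
Mcpt1l1: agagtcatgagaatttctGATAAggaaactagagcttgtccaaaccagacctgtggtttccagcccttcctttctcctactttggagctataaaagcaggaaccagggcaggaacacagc
Cpa3: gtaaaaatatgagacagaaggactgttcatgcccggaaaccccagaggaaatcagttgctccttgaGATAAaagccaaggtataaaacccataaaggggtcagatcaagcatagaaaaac
Tpsb2: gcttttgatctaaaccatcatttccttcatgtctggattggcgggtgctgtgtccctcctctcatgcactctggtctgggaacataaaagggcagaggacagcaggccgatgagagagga
Over the 250 bases before the start, Mcpt1 and Mcpt1l1 were identical at 77.1% of 262 aligned positions, against 55.7% of 287 for the tryptases Tpsab1 and Tpsb2 and 49.8% of 291 for Mcpt1 and Cpa3. The motif GATAA, searched on both strands as those letters or their reverse complement TTATC, was present in this window of Mcpt1, Cpa3, Tpsab1 and Fcer1a and not in that of Tpsb2 or Kit. That is 4 of the 6 members found in the promoter table, and 23.5% of all 33465 promoters in the table held it. In Mcpt1 the motif began 104 bases before the start and in Mcpt1l1 102 bases before it, within the run tttctGATAAgga that both share. In Cpa3 it began 54 bases before the start. A match of 5 letters describes the sequence and does not show that a factor binds there.

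Signals are the linear intensities that the authors deposited, and differences are octreotide LAR minus vehicle on the log2(signal + 16) scale, which understates changes of dim genes. Only probe sets whose mean over the 4 chips reached 149.7, the 40th percentile, were tested; 3 of the 8 members did, and 5 were too dim. The test was limma, two-sided, with adjustment over 9520 probe sets. It takes its spread from the treated chips alone, because the vehicle group is 1 chip, and an exact permutation of 3 chips against 1 could not give a p below 0.5. The median signal was 223.7 to 233.4 on the treated chips and 225.9 on the vehicle chip. Parietal and chief cell markers were bright, with a summed signal of 145230 to 162430 on the treated chips and 172610 on the vehicle chip for 8 genes. In that sum Cym had 3952, 8204 and 7561 on treated pools 1, 2 and 3, and 19071 on the vehicle chip. The brighter Atp4a, Atp4b and Pgc overlapped the vehicle value. Cblif, also brighter than Cym, lay below it on every treated chip. It had 19286, 19109 and 20659 on treated pools 1, 2 and 3, and 21273 on the vehicle chip. Of the 8 genes, 4 lay below the vehicle value on every treated chip and 0 above, where 24% and 24.4% of all probe sets did. The median log2 difference of the 8 genes was -0.13. Squamous epithelial markers, those of the forestomach lining, summed to 6246 to 10114 on the treated chips and 2075 on the vehicle chip over 14 genes. In pooled tissue RNA, fewer mast cells and less RNA per mast cell cannot be told apart.

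No mast cell gene was called different after octreotide LAR. Of the 3 tested probe sets, 0 passed limma's test at an adjusted p under 0.05, where 0.084% of all tested probe sets did (0.0735% higher and 0.0105% lower). Mcpt1 alone had an unadjusted limma p under 0.05, where 4.62% of all did (2.91% higher). With dim probe sets kept in the fit, 0 of the 8 members did, against 776 of all 15866 probe sets. Among all 8 probe sets, 2 lay above the vehicle value on every treated chip (Mcpt1 and Tpsb2), 3 lay below it on every treated chip (Fcer1a, Kit and 1 of Ms4a2), and 3 overlapped it. Over the whole chip 24.4% of probe sets lay above on every treated chip and 24% below. The median log2 difference was -0.09 over the 8 members and -0.01 over all probe sets. Over tested probe sets alone it was 0.37 for the 3 members and -0.0034 for the whole chip.

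**Figure D1:**
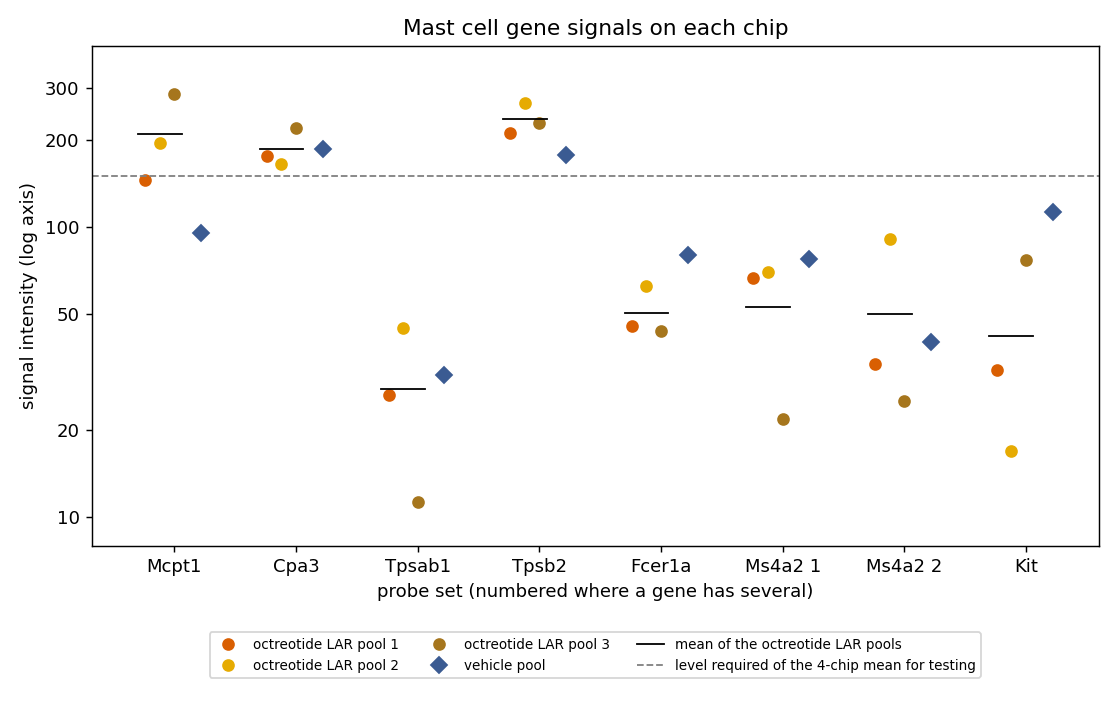
Signal intensity (log axis) of the 8 mast cell probe sets on each octreotide LAR chip (circles, with a line at their mean) and on the vehicle chip (diamonds); the dashed line is the 4-chip mean required for testing. Mcpt1 and Tpsb2 lie above the vehicle value on all 3 treated chips, while Fcer1a, Kit and 1 Ms4a2 probe set lie below it; heights of different probe sets are not comparable.

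Mcpt1, the chymase probe set, had signals of 145.4, 195.3 and 286 on treated pools 1, 2 and 3, and 95.6 on the vehicle chip. All treated values lay above the vehicle value, and the treated pools spread over 0.90 on the log2 scale. The treated mean was 208.9 ± 71.3 (SD, n = 3), which was 0.96 above the vehicle chip on the log2 scale (95% interval 0.04 to 1.89), or 1.95-fold. The limma unadjusted p was 0.042 and the adjusted p 0.9998, so the difference did not pass. The log2 difference was 0.53 on pool 1, 0.92 on pool 2 and 1.44 on pool 3. It was the widest range of the 3 tested members over the 4 chips, at 1.44 on the log2 scale. The vehicle signal lay under the level required for testing, so the probe set was tested through its treated signals. With dim probe sets kept in the fit, the 95% interval was -0.12 to 2.04 and held 0 (limma unadjusted p = 0.074, adjusted p = 0.9996).

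Tpsb2, the beta tryptase of granules, had signals of 211.2, 266.2 and 228.2 on treated pools 1, 2 and 3, and 177.1 on the vehicle chip. The treated values were closer to each other than those of Mcpt1, and all lay above the vehicle value. The treated mean was 235.2 ± 28.2 (SD, n = 3). The mean of the pools' log2 differences was 0.37 (95% interval -0.33 to 1.08, limma adjusted p = 0.9998). The interval holds 0, so no difference in tryptase transcript was detectable with these chips.

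Cpa3, the carboxypeptidase that trims peptides beside the chymases in the granule, had signals of 175.3, 164.4 and 218.9 on treated pools 1, 2 and 3, and 185.1 on the vehicle chip. The vehicle value lay inside the treated range. The treated mean was 186.2 ± 28.8 (SD, n = 3), and the log2 difference was 0.00 (limma adjusted p = 0.9998). Its 95% interval ran from -0.79 to 0.78, so smaller differences in either direction could not be seen. The order of the treated pools differed among the proteases: pool 3 was highest for Mcpt1 and Cpa3, and pool 2 for Tpsb2.

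Tpsab1, the second tryptase gene, was dim, with signals of 26.5, 45 and 11.3 on treated pools 1, 2 and 3, and 31 on the vehicle chip. The groups overlapped, and the mean of the pools' log2 differences was -0.18. This probe set was below the level for testing, as were all receptor probe sets.

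Fcer1a, the IgE-binding chain of the high-affinity receptor, had signals of 45.7, 62.6 and 43.7 on treated pools 1, 2 and 3, and 79.9 on the vehicle chip. Every treated value was below the vehicle value, at a mean log2 difference of -0.54. With dim probe sets kept in the fit, the 95% interval was -1.74 to 0.67 and the limma adjusted p 0.9996, over 15866 probe sets.

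Ms4a2, the beta chain that amplifies the receptor's signal, was read by 2 probe sets that differed from each other. The brighter had signals of 66.9, 69.9 and 21.8 on treated pools 1, 2 and 3, and 77.4 on the vehicle chip, a log2 difference of -0.53. That value rests largely on pool 3 and was -0.15 without it. The dimmer had 33.7, 91.1 and 25.2 on treated pools 1, 2 and 3, and 40.1 on the vehicle chip. Pool 2 lay above the vehicle value in this probe set and the others below it, and the log2 difference was 0.10 with all pools and -0.31 without pool 2.

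Kit, the receptor for stem cell factor that mast cells need to survive and that interstitial cells of Cajal also carry, had signals of 32.3, 17 and 77.1 on treated pools 1, 2 and 3, and 112.8 on the vehicle chip. All treated values lay below the vehicle value, from a small distance on pool 3 to a large one on pool 2. The log2 difference was -1.28, or 2.43-fold lower on that scale, and it was -0.78 with a pseudocount of 64 and -1.66 with a pseudocount of 1. With dim probe sets kept in the fit the interval was -2.86 to 0.29 (limma unadjusted p = 0.097, adjusted p = 0.9996). Of the genes listed for interstitial cells of Cajal, 5 were on the chip, with a summed signal of 836.1 to 1072 on the treated chips and 982.4 on the vehicle chip. Neither of the 2 tested, Gucy1a1 and Gucy1b1, both guanylate cyclase subunits, passed. The part of these cells in the Kit value was not tested.

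**Figure D2:**
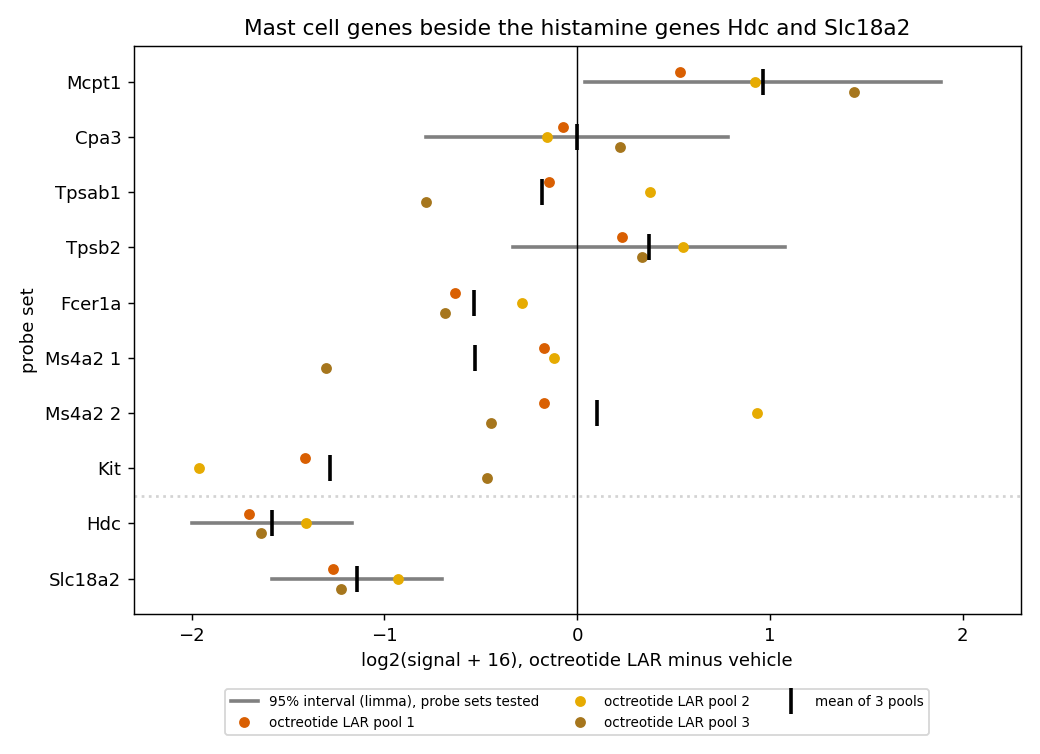
Log2 difference, octreotide LAR minus vehicle, on each treated pool (circles) and as their mean (bars) for the 8 mast cell probe sets and, under the dotted line, for Hdc and Slc18a2; grey lines are 95% limma intervals of tested probe sets. The 3 tested mast cell genes have means between 0.00 and 0.96, and the 5 dim probe sets between -1.28 (Kit) and 0.10 (1 of Ms4a2). Hdc and Slc18a2 have means of -1.59 and -1.14.

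Hdc, the histidine decarboxylase shared by mast and ECL cells, was lower on every treated chip, unlike the 3 tested mast cell genes. Among the dim members, Fcer1a, Kit and 1 Ms4a2 probe set were also lower on every treated chip. The signals of Hdc are given first. They were 1075, 1323 and 1122 on treated pools 1, 2 and 3, and 3537 on the vehicle chip. All treated values lay far below the vehicle value, and Hdc fell by 1.59 on the log2 scale (limma adjusted p = 0.0044), and its 95% interval reached up to -1.17. The call was lost when dim probe sets were kept (limma adjusted p = 0.095) and without the trend of the spread on the level (0.16). That bound lies below the intervals of Mcpt1, Tpsb2 and Cpa3, the lowest of which began at -0.79; the difference between the genes was not itself tested. The wider intervals of all 5 dim member probe sets, from the fit that kept dim probe sets, reach past it. Their lower ends ran from -2.86 for Kit to -1.44 for 1 Ms4a2 probe set. Slc18a2, the vesicular monoamine transporter that both cell types use to load histamine, had 918.7, 1168 and 945.5 on treated pools 1, 2 and 3, and 2237 on the vehicle chip. The log2 difference was -1.14 (limma adjusted p = 0.072). A dimmer Slc18a2 probe set, also lower on every treated chip, differed by -0.83 (limma adjusted p = 0.9998).

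Transcripts of histamine breakdown and histamine receptors were mostly dim. Aoc1, the diamine oxidase that degrades histamine outside cells, had 356.3, 350.3 and 347.1 on treated pools 1, 2 and 3, and 215.5 on the vehicle chip. The treated pools were nearly equal and all above the vehicle value, with a log2 difference of 0.67 (95% interval 0.10 to 1.24, limma unadjusted p = 0.025, adjusted p = 0.9998). Hnmt, the methyltransferase that inactivates histamine inside cells, and the receptors Hrh1, Hrh2, Hrh3 and Hrh4 were all below the level for testing. Of the histamine list, 10 genes were on the chip and 3 were tested, of which Hdc passed lower and none passed higher. Of all tested probe sets, 0.0105% passed lower and 0.0735% higher.

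The other mast cell and lymphocyte granule proteases were mostly dim. Of 20 listed, 10 were on the chip, and 1, the granzyme Gzmk, was tested and did not pass. Of the 10, 4 lay above the vehicle value on every treated chip and 2 below it, where 24.4% and 24% of all probe sets did. The genes named here from this list were chosen after their values were seen. Cma1, the chymase of the alpha type, had 30.2, 52.8 and 75 on treated pools 1, 2 and 3, and 4.6 on the vehicle chip. Mcpt1l1, the copy beside Mcpt1, had 24.6, 11.8 and 27.4 on treated pools 1, 2 and 3, and 5 on the vehicle chip. Both thus lay above the vehicle value on every treated chip, as Mcpt1 did, and for Cma1 pool 3 was the highest, also as for Mcpt1. Their signals were all far below the level for testing. Mcpt4 and Mcpt10, dimmer still, overlapped the vehicle value. Mcpt3 went the other way, with 8.9, 88 and 15.1 on treated pools 1, 2 and 3, and 102.6 on the vehicle chip. Mcpt8, a protease of basophils in mice, had 47.9, 7.5 and 5.6 on treated pools 1, 2 and 3, and 7.6 on the vehicle chip. A further probe set, shared by Mcpt8, Mcpt8l2, Mcpt9 and Mcpt10, was bright enough to be tested, with 168.3, 174.5 and 147.7 on treated pools 1, 2 and 3, and 159.7 on the vehicle chip. Its groups overlapped, at a log2 difference of 0.03 (limma adjusted p = 0.9998), and it cannot be assigned to 1 of these genes. No detection call was used here for the dimmer probe sets.

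The signalling chain below the IgE receptor and Kit showed no call. Of its 25 listed genes 20 were on the chip and 12 were tested; 0 passed in either direction, 0 had an unadjusted limma p under 0.05, and the median log2 difference was -0.03 over those tested. Fcer1g, the gamma chain that the IgE receptor shares with other immune receptors, had 553.1, 483.7 and 589.4 on treated pools 1, 2 and 3, and 537.3 on the vehicle chip. Kitlg, the stem cell factor that binds Kit, had 963.9, 943.1 and 864.3 on treated pools 1, 2 and 3, and 952.1 on the vehicle chip. The vehicle value lay within the treated range for both, and their log2 differences were 0.01 and -0.04. The smallest p belonged to Ptpn6, a phosphatase that restrains the receptor, with 274.3, 295.3 and 235.4 on treated pools 1, 2 and 3, and 395.6 on the vehicle chip (log2 difference -0.54, limma adjusted p = 0.9998).

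Transcription factors of the mast cell lineage were called in neither direction: 9 of 11 were on the chip, 5 were tested and 0 passed. Gata2, needed in mice for mast cells to form, had 174.9, 131.2 and 183.1 on treated pools 1, 2 and 3, and 126.5 on the vehicle chip. The log2 difference was 0.32 (limma adjusted p = 0.9998). The vehicle signal of Gata2 lay under the level for testing, so it was tested through its treated signals. Mitf, which drives mast cell protease genes in mice, had 325.3, 227.1 and 328 on treated pools 1, 2 and 3, and 273.8 on the vehicle chip. Gata1, below the level for testing and picked out after its values were seen, had 85.3, 98 and 84.1 on treated pools 1, 2 and 3, and 30.7 on the vehicle chip. Its treated values were close to each other and all above the vehicle value, as were those of Gata2, while Mitf overlapped. Stat5a, a signal transducer below Kit, went the other way and had the smallest p of the list, with 307.3, 323.3 and 343 on treated pools 1, 2 and 3, and 403.7 on the vehicle chip (log2 difference -0.30, limma adjusted p = 0.9998).

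Genes of mediator synthesis and granule release were on the chip for 19 of 20 listed, and 16 were tested with 0 calls and a median log2 difference of -0.06. Pla2g4a, the phospholipase that frees arachidonic acid, had 770.7, 807.4 and 838.5 on treated pools 1, 2 and 3, and 584.7 on the vehicle chip (log2 difference 0.45, limma unadjusted p = 0.046, adjusted p = 0.9998). Ltc4s, the leukotriene C4 synthase, had 516.6, 675.4 and 682.7 on treated pools 1, 2 and 3, and 468.2 on the vehicle chip. Both lay above the vehicle value on every treated chip without passing. Ctss, the lysosomal protease cathepsin S, had 271.8, 260.1 and 537.5 on treated pools 1, 2 and 3, and 533.7 on the vehicle chip. Pools 1 and 2 lay below the vehicle value and pool 3 just above it, at a log2 difference of -0.64 (limma adjusted p = 0.9998). Srgn, the core protein of granule proteoglycan in mast cells and other blood cells, had 218, 272.9 and 380.6 on treated pools 1, 2 and 3, and 206.4 on the vehicle chip, with pool 3 again the highest. Hpgds, the prostaglandin D synthase of mast cells, had 113.2, 147.6 and 169 on treated pools 1, 2 and 3, and 180.1 on the vehicle chip, so every treated value was below the vehicle value.

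Cytokines and homing molecules that recruit or activate mast cells were mostly dim, with 5 of 23 genes on the chip bright enough to test and 0 called. Il33, an alarmin that activates mast cells through its receptor Il1rl1, had 1721, 2191 and 2049 on treated pools 1, 2 and 3, and 1368 on the vehicle chip. All treated values were above the vehicle value, at a log2 difference of 0.53 (95% interval 0.11 to 0.94, limma unadjusted p = 0.017, adjusted p = 0.9998). A dimmer Il33 probe set differed by 0.34, with an interval that holds 0. Of the 23, 5 lay above the vehicle value on every treated chip and 3 below it, where 24.4% and 24% of all probe sets did. Itgb7, an integrin chain that guides mast cell precursors to the gut in mice, was below the level for testing, with 159.1, 107.8 and 93.4 on treated pools 1, 2 and 3, and 220.9 on the vehicle chip. Ccl2 and Il13, also below that level, went the other way. Ccl2 had 165, 117 and 150.3 on the same pools, and 20.1 on the vehicle chip. Il13 had 147.3, 61.6 and 124.2, and 18.9 on the vehicle chip. These 3 were picked after their values were seen.

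**Figure D3:**
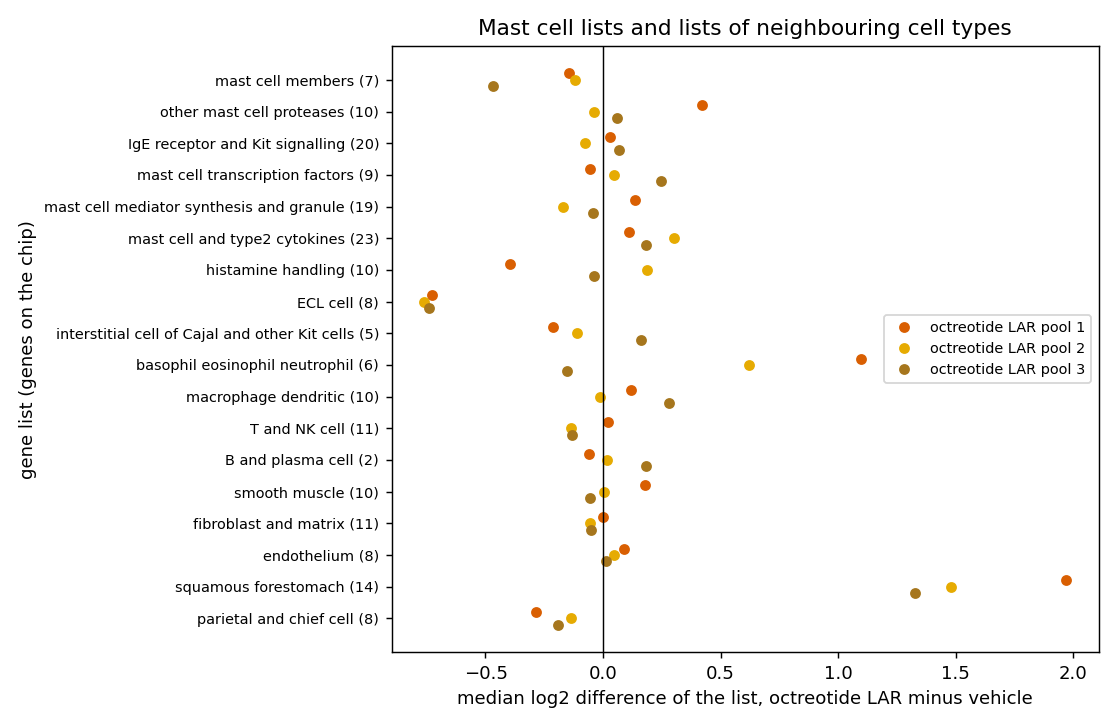
Median log2 difference, octreotide LAR minus vehicle, of each gene list on each treated pool (circles). Medians are over the list's genes on the chip, tested or not, and the number of these genes is in brackets. The mast cell members lie at -0.15, -0.12 and -0.47 on pools 1, 2 and 3, the ECL cell list at -0.73, -0.76 and -0.74, and the squamous list at 1.97, 1.48 and 1.33.

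Markers of other cells of the mucosa were read beside the mast cell genes. The 7 mast cell genes, by their brightest probe sets, summed to a signal of 703.3, 820.4 and 887 on treated pools 1, 2 and 3, and 758.9 on the vehicle chip. Macrophage and dendritic markers, of which 10 were on the chip and 0 of 6 tested were called, summed to 4881, 4533 and 5935 on treated pools 1, 2 and 3, and 4526 on the vehicle chip. Pool 3 was thus highest for these markers as well as for Mcpt1; the part of these cells in the Mcpt1 value was not tested. Single macrophage markers differed in direction. Of the 10, 4 lay above the vehicle value on every treated chip and 1, Cd68, below it. Of all probe sets, 24.4% lay above on every treated chip and 24% below. The median log2 difference was 0.12 over the 6 macrophage and dendritic markers tested. Smooth muscle markers summed to 79111, 68877 and 61955 on treated pools 1, 2 and 3, and 67680 on the vehicle chip, and matrix and fibroblast markers to 45224, 43006 and 45663, against 45576. Of these lists 10 and 11 genes were tested and 0 were called, so the muscle and connective tissue in the scrapings showed no called difference. Granulocyte markers, 6 on the chip, were all below the level for testing and summed to 257.4 to 473.8 on the treated chips and 248.7 on the vehicle chip. T and NK cell markers summed to 924.8 to 1009 on the treated chips and 1037 on the vehicle chip, with 0 of 2 tested called. The squamous list had 5 of 11 tested genes called higher and 0 lower, where 0.0735% and 0.0105% of all tested probe sets were. These calls were lost when dim probe sets were kept. Of the genes called, Lgals7 and Sprr3 had vehicle signals of 22.4 and 139.4, under the level for testing, so they were tested through their treated signals. The same holds for Krt5, Krt14 and Krt15, which were not called and had vehicle signals of 100.2, 93.4 and 128.3. The part of squamous tissue in any mast cell value was not tested.

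Genes whose profile over the 4 chips lay nearest to a mast cell gene were sought by the root mean square distance of centred log2 values among 8077 tested probe sets of single genes. For Mcpt1 the nearest were Nectin2 at a distance of 0.11, C9h6orf141 at 0.12 and Maf at 0.13. Nectin2 had log2 differences of 0.41, 0.68 and 1.17 on pools 1, 2 and 3. For Tpsb2 the nearest were Cebpg at 0.0080, N4bp2l2 at 0.0092 and Golm1 at 0.013. With 4 chips, such likeness describes these chips and no more.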

How the data were processed

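Scraped oxyntic mucosa was measured on 4 Affymetrix RAE230A chips, 3 for octreotide LAR and 1 for vehicle, per the labels and the file headers. The authors deposited a linear intensity for each probe set on each chip; how it was computed and scaled is not given in the sources used here. The mean without the extreme 2% lay between 496.5 and 496.8 on all chips, so the chips appear scaled to 1 level, which would hide a change in total messenger RNA. Per the file headers all chips shared 1 lot and wash protocol, each on its own fluidics module, so the vehicle group and its chip cannot be told apart. Whether the RNA of 1 chip would repeat was not measured; the spread is that between pools of 2 animals.

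Signals were used as log2(signal + 16). Probe sets with a 4-chip mean under the 40th percentile (149.7) were left out. The other 9520 were tested with limma 3.58.1 in R 4.3.3 (eBayes with trend; 2 residual and 10.7 prior degrees of freedom; Benjamini-Hochberg, threshold 0.05), which was tested on simulated data. Of 15866 probe sets 12783 named 1 gene, 312 several and 2771 none; 12748 matched the GRCr8 gene table. A gene with several probe sets is given by the brightest. Sequences were aligned with Biopython 1.88. The text names all members, Hdc and Slc18a2, some of the 3 genes of smallest p in each list, and the nearest profiles of the 2 tested members that varied most; other list genes were picked after their values were seen. Members and the 17 other gene lists were chosen with earlier results of these data known. The alternatives tried were other pseudocounts, filters and scalings, other moderation, averaged probe sets and each treated chip left out.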

Additional observations from a re-analysis of the deposited data

How the results depend on the processing

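None of the member probe sets tested was called under the 12 alternatives that refitted all probe sets. Only the fit without the filter tested all 8 members, and it called 0 of 15866 probe sets. The others tested 3 members, so the 5 dim ones could not be called there. Mcpt1 kept its direction under all 13 of its alternatives, between 0.73 and 1.18 on the log2 scale with a limma adjusted p of 0.43 or more, and Tpsb2 did too, between 0.29 and 0.44. Cpa3, at 0.00, changed sign with a pseudocount of 64 (0.00017), without pool 1 (0.034) and without pool 2 (0.076; -0.11 without pool 3), values within the spread of its pools. The median over the 8 members ran from -0.39 to 0.00054 when each treated pool was left out. Over the whole chip the test called 8 probe sets. It called 5 with a pseudocount of 64, with a filter at the 20th percentile or with centring on the 75th percentile, 4 with quantile normalization, 23 to 52 without 1 treated pool, and 0 without the filter, without the trend or without moderation, where 776 of 15866 had an unadjusted limma p under 0.05 without the filter. With the filter on mean log2 values, an alternative chosen after seeing the data, it called 10. Of the genes in the other lists 6 were called, against 0 without the filter, the trend or moderation and 13 to 14 without 1 treated pool. The Hdc call was lost in those fits with 0 calls (limma adjusted p = 0.095, 0.16 and 0.97). The log2 difference of Slc18a2 was -1.08, -1.25 and -1.10 without pool 1, 2 and 3, in fits that keep the same vehicle chip. With all 3 pools, Slc18a2 passed in no fit. Its limma adjusted p then ran from 0.056 with the filter on mean log2 values to 0.98 without moderation, and was 0.38 with averaged probe sets. The causes were not tested. No paired analysis was possible because the vehicle group is 1 chip with RNA pooled from all 8 control animals. The single vehicle chip and the dim signals of 5 members limit what could be detected.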
